A study of Mus musculus with 20 samples.

Results

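The collagen genes were taken as all genes whose symbol reads Col, a number, a and a number, which gave 44 of the 35204 genes in the deposited table of estimated counts per gene. They were measured in 20 female C57Bl6 mice, 7 weeks old at the start, from which a short piece of terminal ileum with all wall layers was sequenced as poly-A RNA. All mice ate a defined amino acid diet for 3 weeks, either with tryptophan (CD) or without it (TDD), and either kept their specific pathogen-free microbiota (SPF) or received an antibiotic mixture (ABX) of ampicillin, vancomycin, gentamycin, metronidazole and neomycin. The 4 groups of 5 mice are called CD, TDD, CD+ABX and TDD+ABX, and the mice are numbered as in the labels. The labels name no engineered allele, each library came from 1 mouse, and housing by cage was not given in the sources used here. The question asked of these genes was how their mRNA levels followed the loss of dietary tryptophan with and without an intact microbiota.

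Collagens are secreted or membrane-bound proteins built of chains that wind around each other along stretches in which glycine recurs at regular steps. Fibrillar collagens (types I, III, V and relatives) form the fibers of the submucosa and lamina propria, type IV forms the sheet of basement membranes, and type VI forms beaded filaments around cells. Fibril-associated collagens (FACITs) decorate fibers, multiplexins link basement membranes to the matrix, and a further group spans the plasma membrane. In the gut wall they are made mainly by fibroblasts, smooth muscle and endothelium, with some chains made by epithelium. The chains are hydroxylated, folded and trimmed on their way out of the cell and then cross-linked by lysyl oxidases.

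Of the 44 genes, 39 reached 0.5 CPM (counts scaled to the library total) in at least 1 mouse and were tested, among 16306 genes in all. Col2a1, Col6a6, Col9a1, Col10a1 and Col19a1 stayed below that level, the highest of them Col9a1 at 0.419 CPM (19 counts), and were not tested. A gene passed the test at a Benjamini-Hochberg adjusted p (q) under 0.05 over the 16306 genes in edgeR's quasi-likelihood test, and was called if it also changed at least 2-fold. Without tryptophan, 14 of the 39 collagen genes passed in SPF mice and all 14 were lower, where 14.4% of all genes tested passed in either direction and 7.71% passed and were lower. With ABX, 7 collagen genes passed as lower and 1 as higher between the diets, where 1.02% and 0.626% of all genes did so. Between mice with and without ABX, 8 collagen genes were lower with ABX on CD and 4 on TDD, where 7.37% and 8.22% of all genes passed and were lower, and none passed as higher. The median log2 fold change of the 39 genes was -0.30 for the diet in SPF mice, -0.09 for the diet with ABX, -0.25 for ABX on CD and -0.18 for ABX on TDD, while the medians of all genes tested lay between -0.03 and 0.01. The comparisons share groups (CD mice enter both the diet comparison in SPF mice and that of ABX on CD, and so on), so their values are set side by side and were not used to support each other.

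**Figure D1:**
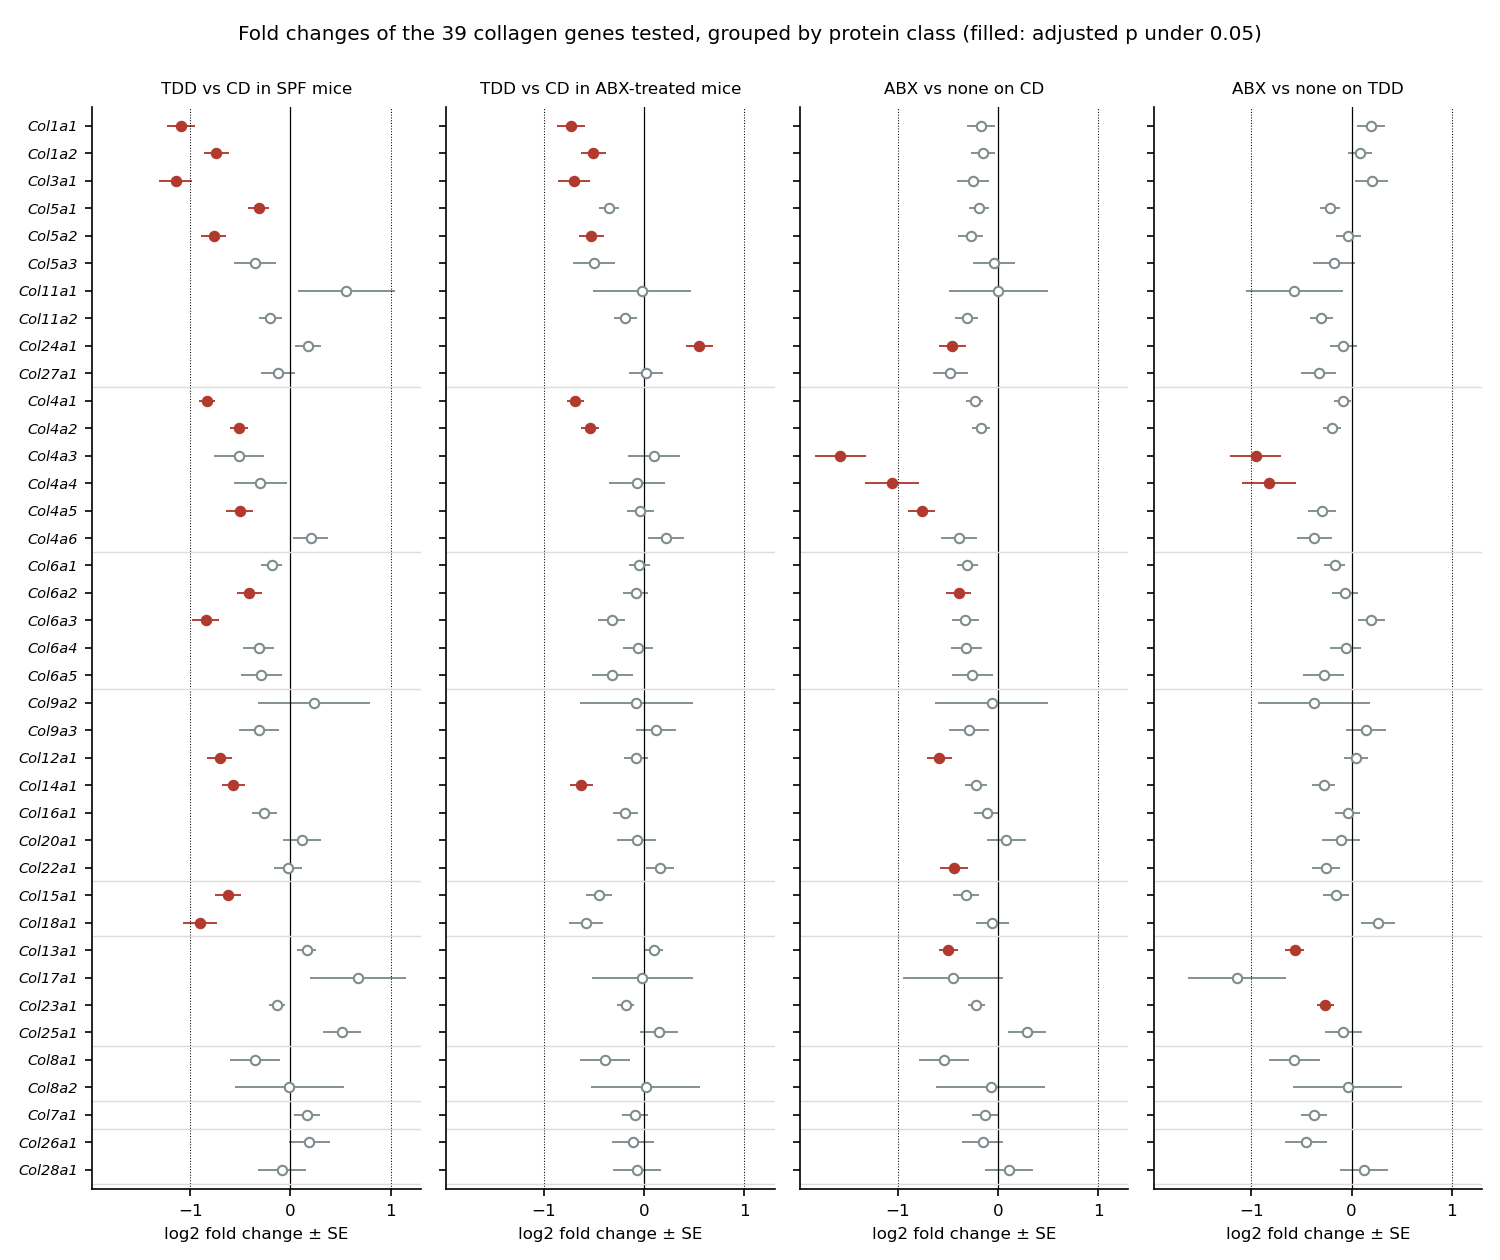
Log2 fold change with its standard error for each of the 39 collagen genes tested (rows, grouped by protein class and parted by grey lines) in 4 comparisons (columns), with filled red points for adjusted p under 0.05 and dotted lines at a 2-fold change. The 14 filled points of the diet in SPF mice all lie left of 0, and among the filled points of ABX the farthest from 0 are those of Col4a3 and Col4a4 on CD.

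Total counts per mouse ranged from 36677000 to 50751000 in CD, 37664000 to 58619000 in TDD, 41491000 to 58663000 in CD+ABX and 41199000 to 50576000 in TDD+ABX mice and limit the precision of the low genes: the highest count of a tested collagen gene in a mouse ran from 45 (Col11a1) to 13875 (Col3a1). CD mouse 5 alone held RNA of pancreas (Cpa1 at 23.3 CPM and Pnlip at 33.2 CPM, against at most 0.0753 CPM and 0.024 CPM in the other mice), and CD mouse 2 had the highest TMM factor (1.15) and the lowest level of the enterocyte keratin Krt20 (767 CPM). The ileal bile acid binding protein gene Fabp6 lay between 0.238 and 3.91 CPM in the 10 SPF mice. In the ABX-treated mice it lay between 2.65 and 144 CPM. This marker of terminal ileum was thus low in the SPF mice and also in some ABX-treated mice. CD+ABX mouse 1 (2.65 CPM) and TDD+ABX mouse 4 (3.34 CPM) lay within the range of the SPF mice. The proximal marker Apoa4 reached 1295 CPM or more in all mice. It was lower with ABX on CD (log2 fold change -1.61, q = 0.00593) and on TDD (-1.13, q = 0.0336). Whether the groups with and without ABX differ in position along the gut was not tested. All listed markers of epithelium, smooth muscle, fibroblasts and endothelium had counts in every library.

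Per transcript length, Col3a1 was the most abundant collagen, with a mean of 58.1 TPM (the share of a gene among all transcripts, corrected for length) over the 20 mice. It was followed by Col6a1 (35.1 TPM), Col4a1 (26.8 TPM), Col6a2 (24.5 TPM), Col6a4 (23.1 TPM) and Col1a2 (16 TPM). In CD mice these 6 means were 82.6 ± 21, 40.5 ± 6.99, 38.2 ± 3.36, 30.6 ± 6.77, 28 ± 5.73 and 20.2 ± 3.75 TPM (SD, n = 5 each), so that Col6a1 and Col4a1 differed by less than the spread between mice, as did Col6a2 and Col6a4. Types I, III, IV and VI thus held the top 8 ranks together with Col6a3 and Col4a2, whereas the membrane-spanning collagens reached at most 4.84 TPM (Col23a1) and the short-chain collagens at most 1.06 TPM (Col8a2). In part these levels rest on short transcripts: 20.8% of the Col3a1 TPM of CD mice was assigned to the intron-retaining transcript Col3a1-207 and 35.2% of the Col6a3 TPM to Col6a3-206. Summed over the 44 genes, collagen mRNA made up 1329 ± 170.5 CPM in CD mice, 881 ± 83.4 CPM in TDD mice, 1109 ± 112 CPM in CD+ABX mice and 851 ± 57.8 CPM in TDD+ABX mice (mean ± SD, n = 5). The lowest CD mouse (1166 CPM) lay above the highest TDD mouse (969 CPM), and the lowest CD+ABX mouse (977 CPM) above the highest TDD+ABX mouse (886 CPM).

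Several collagen genes lie beside each other in the mouse genome, and the pairs bear on how their values can be read (coordinates on GRCm38, GENCODE M21). Col4a4 (chr1:82448423-82586849, minus strand) and Col4a3 (chr1:82586921-82722059, plus strand) start 71 bases apart and run in opposite directions. Col4a1 (chr8:11198423-11312826, minus strand) and Col4a2 (chr8:11312805-11449287, plus strand) share their first 22 bases head to head, and Col4a6 and Col4a5 on chromosome X start 1308 bases apart. Col3a1 (chr1:45311538-45349706, plus strand) and Col5a2 (chr1:45374321-45503282, minus strand) lie tail to tail with 24614 bases between them. In 13 of the 44 genes an annotated exon overlaps one of another gene, Col3a1, Col4a1, Col4a2, Col4a3, Col5a1, Col6a4 and Col15a1 among them, and since strand-specific counting is not stated, reads in such stretches cannot be assigned with certainty.

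The 3 stretches before a start site below are shown because the diet and ABX results turn on these genes: the start of Col3a1, the most abundant collagen and lower on TDD, the 71 bases between Col4a4 and Col4a3, which fell together with ABX, and the start of Col13a1, which fell with ABX on both diets. They are RefSeq sequences on GRCm38.p6, written 5′ to 3′ on the strand of the gene named. Capitals mark the letters TATAAA on either strand, at any distance from the start. The motifs CCAAT (in both directions) and, likewise, GGGCGG were also searched and are not in these stretches.
Col3a1 (chr1:45311288-45311537, plus strand): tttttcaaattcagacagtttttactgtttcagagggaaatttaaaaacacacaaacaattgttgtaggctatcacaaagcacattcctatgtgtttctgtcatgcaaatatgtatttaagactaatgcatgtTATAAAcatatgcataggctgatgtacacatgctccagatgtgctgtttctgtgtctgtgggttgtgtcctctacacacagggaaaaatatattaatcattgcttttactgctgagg
Col4a4 (chr1:82586850-82586920, minus strand): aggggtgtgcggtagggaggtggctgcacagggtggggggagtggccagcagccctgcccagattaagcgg
Col13a1 (chr10:61979109-61979358, minus strand): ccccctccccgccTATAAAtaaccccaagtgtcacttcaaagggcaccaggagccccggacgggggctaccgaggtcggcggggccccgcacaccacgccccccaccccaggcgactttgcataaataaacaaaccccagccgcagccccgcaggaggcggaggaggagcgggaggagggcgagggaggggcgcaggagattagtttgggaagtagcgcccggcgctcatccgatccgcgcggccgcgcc

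The Col3a1 stretch is 35.2% G and C, and the Col4a4 and Col13a1 stretches are 69.0% and 68.8%. Over the 250 bases before the start, 12 of the 35 collagen genes with a RefSeq window held the letters of CCAAT, 21 those of GGGCGG and 5 those of TATAAA, where 34.5%, 32.9% and 13.0% of 27025 genes did. A match of these letters is a description of the sequence and not a binding site.

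Of the 10 fibrillar genes tested, Col1a1, Col1a2, Col3a1, Col5a1 and Col5a2 were lower in TDD than in CD mice. Col3a1 encodes the chain of type III, the fiber of distensible tissues. It was at 196, 238, 188, 169 and 292 CPM in CD mice and at 77.6, 114, 103, 89.5 and 106 CPM in TDD mice. In ABX-treated mice Col3a1 was at 219, 174, 163, 222 and 135 CPM on CD and 144, 93.6, 117, 98.9 and 108 CPM on TDD. The SPF groups did not overlap, whereas TDD+ABX mouse 1 lay above CD+ABX mouse 5. The log2 fold change was -1.15 ± 0.16 (SE, q = 0.000176) in SPF mice and -0.70 ± 0.16 (SE, q = 0.0359) with ABX. The call with ABX was lost in 8 of 20 fits that left out 1 mouse (CD+ABX mice 1, 2, 3 and 4 or TDD+ABX mice 2, 3, 4 and 5, q up to 0.109), and it passed under 7 of 13 other settings.

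Col1a1 (chr11:94936224-94953042, plus strand) and Col1a2 (chr6:4504814-4541544, plus strand) encode the chains of type I, the main fiber of the gut wall. Col1a1 was at 50.6, 57.4, 50.4, 36.1 and 61 CPM in CD mice and at 23, 24.1, 24, 21.9 and 26.9 CPM in TDD mice. On ABX its values were 60.2, 41.8, 42.7, 49.9 and 32.5 CPM on CD and 30.3, 22.9, 27.6, 27.2 and 28.8 CPM on TDD. Neither pair of groups overlapped, and every mouse without dietary tryptophan lay below every mouse of the same microbiota status with it. The log2 fold change was -1.09 ± 0.14 (SE, q = 7.60e-05) in SPF mice and -0.73 ± 0.14 (SE, q = 0.0132) with ABX, and both passed in all 20 fits that left out 1 mouse. Col1a1 and Col3a1 were the only 2 collagen genes called at 2-fold in SPF mice, where 0.993% of all genes were called as lower. No collagen gene was called at 2-fold between the diets with ABX, where 0.307% of all genes were. Without both CD mouse 2 and CD mouse 5 the SPF log2 fold changes were -0.93 (Col1a1) and -0.92 (Col3a1), so that both still passed but no longer reached 2-fold.

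Col1a2 was at 67.6, 84, 76.4, 62.8 and 95.7 CPM in CD mice and at 42.4, 49.3, 43.6, 45.6 and 50.7 CPM in TDD mice, without overlap. Among ABX-treated mice it was at 80, 69.4, 64, 82.2 and 52.8 CPM on CD and 50.6, 42, 46.8, 47.4 and 58.4 CPM on TDD, where TDD+ABX mouse 5 lay above CD+ABX mouse 5. Its log2 fold change was -0.74 ± 0.12 (SE, q = 0.000619) in SPF mice and -0.51 ± 0.12 (SE, q = 0.0415) with ABX, and the latter was lost in 12 of 20 fits that left out 1 mouse (CD mouse 3, TDD mice 2 to 4, CD+ABX mice 1 to 4 or TDD+ABX mice 1 to 4, q up to 0.116) and passed under 7 of 13 other settings.

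Type V collagen nucleates type I fibers, and both of its main chains were lower in SPF mice on TDD. Col5a2 was at 32.8, 40.4, 32.3, 29.2 and 40.1 CPM in CD mice and at 18.4, 24.1, 21.3, 17.5 and 21.3 CPM in TDD mice, without overlap. The log2 fold change of Col5a2 was -0.77 ± 0.13 (SE, q = 0.00065) in SPF mice. With ABX it was -0.53 ± 0.13 (SE, q = 0.0415), a call lost in 10 of 20 fits that left out 1 mouse (CD mouse 1, TDD mouse 3, CD+ABX mice 1 to 4 or TDD+ABX mice 1 to 4, q up to 0.12) and kept under 4 of 13 other settings. Col5a1 (chr2:27886425-28039514, plus strand) ranged from 32 to 41.3 CPM in CD and from 25 to 31.6 CPM in TDD mice, with a log2 fold change of -0.32 ± 0.10 (SE, q = 0.0391), a call that leaving out any 1 of 6 mice ended (CD mice 1 and 5, TDD mice 1, 2, 4 and 5, q up to 0.1) and that was kept under 7 of 13 other settings. With ABX the Col5a1 value was -0.35 ± 0.10 (SE, q = 0.0835) and did not pass.

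Col5a3, Col11a1, Col11a2 and Col27a1 passed in none of the 4 comparisons, with log2 fold changes on TDD in SPF mice from -0.36 (Col5a3) to 0.56 (Col11a1, at most 1.08 CPM). Col5a3, the remaining type V chain, was at -0.36 ± 0.21 (SE, q = 0.277) in SPF mice and -0.50 ± 0.21 (SE, q = 0.265) with ABX, and passed in SPF mice with Myh11 as a covariate. Col24a1, a minor fibrillar chain, was the one collagen gene that was higher on TDD with ABX, and its values are given because it went the other way, a choice made after its values were seen. It was at 2.23, 1.82, 2.21, 1.81 and 2.06 CPM in CD+ABX mice and at 3.04, 2.52, 3.54, 3.32 and 2.39 CPM in TDD+ABX mice, and at 3.09, 2.79, 2.51, 2.68 and 2.84 CPM in CD and 2.38, 2.91, 3.81, 3.19 and 3.38 CPM in TDD mice. The ABX groups did not overlap and the CD+ABX mice were also below all CD mice. The log2 fold change of Col24a1 was 0.55 ± 0.13 (SE, q = 0.042) for the diet with ABX and -0.46 ± 0.13 (SE, q = 0.0304) for ABX on CD, and the first was lost in 11 of 20 fits that left out 1 mouse (CD mouse 4, TDD mouse 2 or 4, any CD+ABX mouse or TDD+ABX mouse 1, 3 or 4, q up to 0.113). The second was lost without CD mouse 1 or 5 or CD+ABX mouse 2, 4 or 5 (q up to 0.0767). They passed under 6 and 9 of 13 other settings, and neither passed with limma on log2(TPM + 1) or log2(TPM + 0.1).

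**Figure D2:**
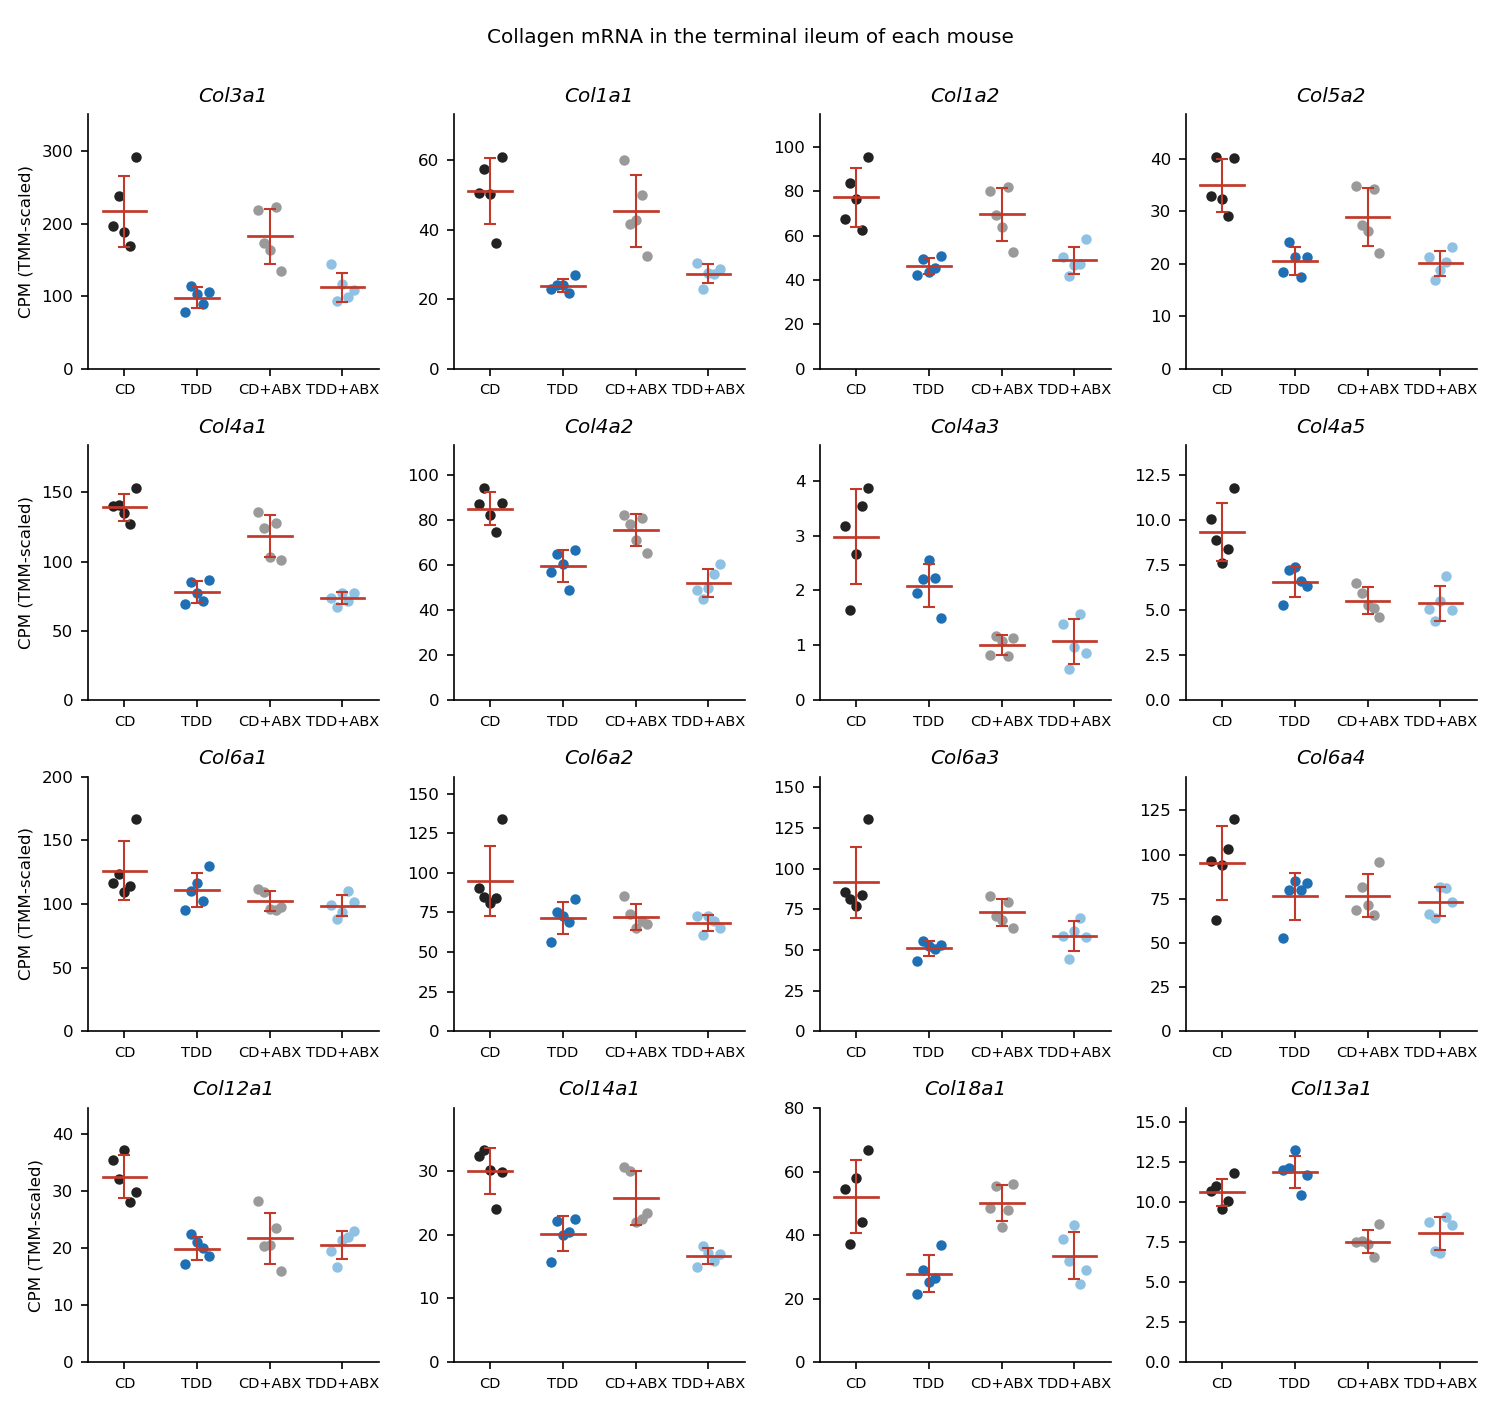
CPM (y axis, TMM-scaled) of 16 collagen genes in each of the 20 mice (points, ordered by mouse number within a group), with the mean and SD of each group in red (n = 5). CD and TDD mice are fully apart for Col3a1, Col1a1, Col1a2, Col5a2, Col4a1, Col4a2, Col4a5, Col6a3, Col12a1, Col14a1 and Col18a1. Col4a3 is lowest in the ABX-treated groups, and CD mouse 5 is the highest mouse for all 4 type VI genes.

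Among the 6 chains of type IV collagen, the ubiquitous pair of basement membranes followed the diet. Col4a1 was at 140.4, 141, 135, 127 and 153 CPM in CD mice and at 69.4, 85.6, 77.5, 71.8 and 86.9 CPM in TDD mice. With ABX it was at 136, 124, 103, 128 and 101 CPM on CD and 73.9, 67.1, 77.1, 71.8 and 77.6 CPM on TDD. No TDD mouse reached any CD mouse with or without ABX. The log2 fold changes, -0.83 ± 0.08 (SE, q = 1.04e-05) in SPF mice and -0.69 ± 0.08 (SE, q = 0.000468) with ABX, had the smallest q of all collagen genes in both comparisons and passed in all fits that left out 1 mouse. Its partner Col4a2 was at 87.1, 94.3, 82, 74.5 and 87.3 CPM in CD and 57.1, 64.8, 60.5, 48.7 and 66.8 CPM in TDD mice. With ABX Col4a2 was at 82, 78.4, 71.2, 80.8 and 65.4 CPM on CD and at 49, 44.9, 49.9, 56 and 60.2 CPM on TDD. Again neither pair of groups overlapped, with log2 fold changes of -0.51 ± 0.09 (SE, q = 0.00124) in SPF mice and -0.54 ± 0.09 (SE, q = 0.00682) with ABX, although the latter did not pass with limma on log2(TPM + 1) or log2(TPM + 0.1) (q up to 0.0602).

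Col4a3 and Col4a4, chains of specialised basement membranes, were lower with ABX. Col4a3 was at 3.17, 1.65, 2.67, 3.53 and 3.87 CPM in CD mice and at 0.816, 1.18, 1.09, 0.798 and 1.13 CPM in CD+ABX mice. On TDD it was at 1.96, 2.2, 2.55, 2.23 and 1.5 CPM without ABX and at 1.38, 0.56, 0.972, 1.57 and 0.862 CPM with ABX. The CD groups did not overlap, and on TDD only TDD+ABX mouse 4 lay above a TDD mouse. Its log2 fold change with ABX was -1.57 ± 0.26 (SE, q = 0.000881) on CD and -0.96 ± 0.25 (SE, q = 0.0171) on TDD, the first of which is the largest change of any collagen gene tested in these 4 comparisons. The call on TDD did not pass with limma on log2(TPM + 1) or log2(TPM + 0.1) (q up to 0.102). Col4a4, which faces Col4a3 across the 71 bases shown and was added for that reason after its values were seen, was at 2.07, 1.35, 1.72, 1.81 and 1.79 CPM in CD and 0.75, 1.1, 0.84, 0.623 and 0.886 CPM in CD+ABX mice. Its log2 fold change with ABX was -1.05 ± 0.27 (SE, q = 0.0152) on CD. On TDD it was -0.82 ± 0.27 (SE, q = 0.0462), a call that held in 3 of 20 fits that left out 1 mouse (without CD mouse 2, CD+ABX mouse 5 or TDD+ABX mouse 4, q up to 0.137 in the others) and under 8 of 13 other settings. These 2 genes were the collagen genes called at 2-fold with ABX on CD, where 1.67% of all genes were called as lower. On TDD none was called at 2-fold, where 1.63% of all genes were. Col4a3 and Col4a4 had at most 184 and 100 counts in a mouse.

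Col4a5 (chrX:141475385-141689234, plus strand) was lower both with the diet and with ABX. It was at 10.1, 8.89, 7.62, 8.37 and 11.8 CPM in CD mice, 5.3, 7.22, 7.42, 6.61 and 6.34 CPM in TDD mice and 6.53, 5.97, 5.3, 5.12 and 4.64 CPM in CD+ABX mice, and at 5.04, 4.36, 5.52, 6.91 and 5 CPM in TDD+ABX mice. The CD mice lay above all TDD and all CD+ABX mice. Its log2 fold change was -0.51 ± 0.14 (SE, q = 0.0181) for the diet in SPF mice, lost without CD mouse 5 (q = 0.0512) and kept under 9 of 13 other settings, and -0.76 ± 0.14 (SE, q = 0.00173) for ABX on CD, which passed in all 20 fits that left out 1 mouse. Col4a6 did not pass in any comparison, and its deposited gene value was 2 times the sum of its transcripts in the files, so its CPM level is uncertain.

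The beaded-filament chains of type VI did not move as a unit. Col6a3, the largest chain, was at 85.4, 81, 77.1, 83.8 and 131 CPM in CD mice and at 43.1, 55.2, 52.7, 50.6 and 53.2 CPM in TDD mice. On ABX Col6a3 was at 83.1, 71.1, 68.5, 79.4 and 63.4 CPM on CD and 58.8, 44.1, 61.8, 69.6 and 57.8 CPM on TDD. The SPF groups were apart, with a log2 fold change of -0.85 ± 0.13 (SE, q = 0.00044), and the ABX groups overlapped, with -0.32 ± 0.13 (SE, q = 0.257). Col6a1 (chr10:76708792-76726168, minus strand) was at 117, 124, 109.5, 114 and 167 CPM in CD and at 95.5, 110.5, 116, 102 and 130.0 CPM in TDD mice, overlapping, and did not pass (-0.19 ± 0.10 (SE, q = 0.252)). Col6a2 was at 90.7, 85, 81.2, 83.9 and 134 CPM in CD and at 56.1, 75.6, 72.7, 68.8 and 83.5 CPM in TDD mice, where TDD mouse 5 lay above CD mouse 3. Col6a2 had a log2 fold change of -0.41 ± 0.13 (SE, q = 0.033), which leaving out any 1 of 4 mice ended (CD mouse 5, TDD mice 1, 3 and 4, q up to 0.0792) and which was kept under 9 of 13 other settings. Its change with ABX on CD, -0.39 ± 0.13 (SE, q = 0.0451), was lost in 11 of 20 such fits (CD mice 1 and 5, TDD mice 2, 3 and 4, CD+ABX mice 2, 3, 4 and 5 and TDD+ABX mice 1 and 3, q up to 0.122) and passed under 3 of 13 other settings. Col6a4, a chain expressed in the mouse intestine, was at 96.3, 62.7, 94, 103 and 120.1 CPM in CD and at 52.9, 80.1, 85.1, 79.8 and 84.1 CPM in TDD mice and did not pass (-0.32 ± 0.15 (SE, q = 0.177)). CD mouse 5, the mouse with pancreatic RNA, was the highest of its group for Col6a1, Col6a2, Col6a3 and Col6a4. Without CD mice 2 and 5, Col6a3 still passed, and Col6a2 did not.

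The levels of partner chains can be compared within a mouse as a ratio of TPM, which is given as a description without a test. Col1a1 per Col1a2 was 0.638, 0.556, 0.565, 0.498 and 0.54 in CD mice and 0.444, 0.4, 0.466, 0.403 and 0.447 in TDD mice, without overlap. With ABX it was 0.657, 0.528, 0.546, 0.524 and 0.535 on CD and 0.511, 0.47, 0.478, 0.476 and 0.402 on TDD, again without overlap. Col6a3 per Col6a1 was 0.531, 0.459, 0.47, 0.454 and 0.527 in CD and 0.353, 0.301, 0.243, 0.305 and 0.224 in TDD mice, and the lowest CD mouse lay above the highest TDD mouse. On ABX that ratio was 0.443, 0.426, 0.498, 0.572 and 0.469 on CD and 0.386, 0.346, 0.415, 0.425 and 0.345 on TDD, with the 2 groups adjoining without overlap (lowest CD+ABX 0.4257, highest TDD+ABX 0.4252). Col4a1 per Col4a2 was 2.19 ± 0.302 in CD and 1.75 ± 0.286 in TDD mice (mean ± SD, n = 5), with overlap, and 1.89 ± 0.081 and 1.77 ± 0.208 with ABX. Col3a1 per Col1a1 was 7.27 ± 0.81, 6.77 ± 1.02, 6.93 ± 0.57 and 6.95 ± 0.822 in CD, TDD, CD+ABX and TDD+ABX mice, so that these 2 fiber genes moved in near proportion while Col1a1 moved more than Col1a2.

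**Figure D3:**
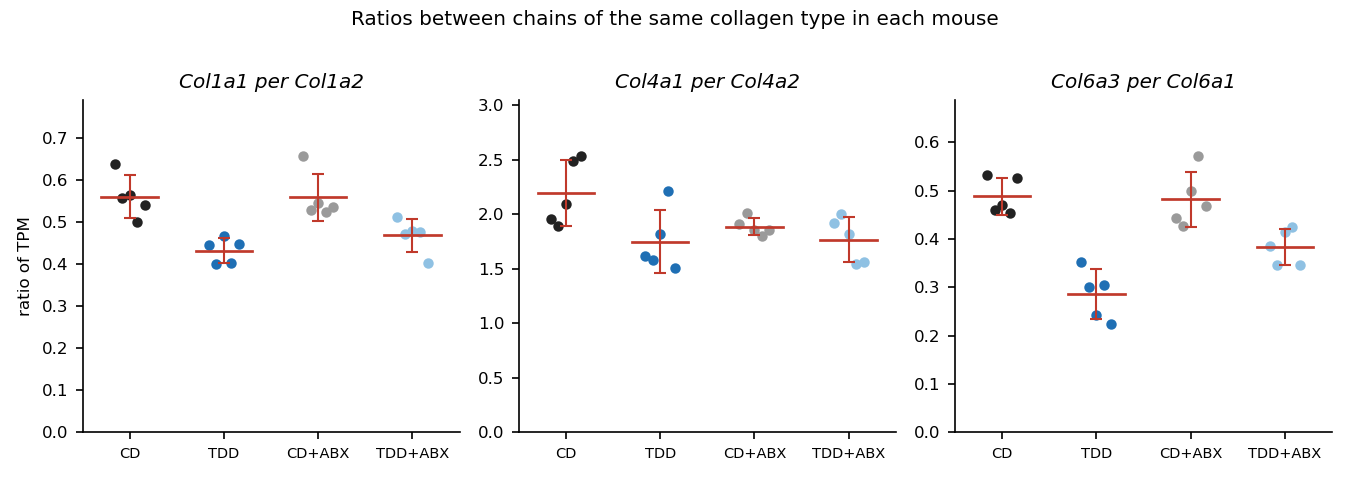
Ratio of TPM (y axis) between partner chains of type I, type IV and type VI collagen in each mouse (points), with the mean and SD of each group in red (n = 5). Col1a1 per Col1a2 and Col6a3 per Col6a1 are lower in TDD than in CD mice without overlap (means 0.559 against 0.432 and 0.488 against 0.285).

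Of the collagens that decorate or link fibers, 4 were lower on TDD. Col14a1 (chr15:55307750-55520803, plus strand), a FACIT that binds type I fibers, was at 32.3, 33.2, 30.1, 24.1 and 29.8 CPM in CD and at 15.6, 22.2, 20, 20.5 and 22.4 CPM in TDD mice. Col14a1 stood at 30.6, 30, 22, 22.5 and 23.3 CPM on CD and 14.9, 18.2, 17.2, 15.8 and 17 CPM on TDD with ABX. Neither pair of groups overlapped, and the log2 fold changes were -0.57 ± 0.11 (SE, q = 0.00246) and -0.63 ± 0.11 (SE, q = 0.00866), both kept in all fits that left out 1 mouse. Col12a1 (chr9:79598991-79718831, minus strand), a FACIT of tissues under strain, was at 35.4, 32.2, 37.2, 28.1 and 29.9 CPM in CD mice and at 17.3, 22.5, 21.1, 20.1 and 18.7 CPM in TDD mice. With ABX Col12a1 was at 28.3, 20.4, 20.6, 23.5 and 16 CPM on CD and at 19.6, 16.8, 21.5, 21.9 and 23 CPM on TDD. The CD mice stood above the other groups apart from CD+ABX mouse 1, which lay just above CD mouse 4. Col12a1 had log2 fold changes of -0.71 ± 0.12 (SE, q = 0.000924) for the diet in SPF mice, -0.08 ± 0.12 (SE, q = 0.815) for the diet with ABX and -0.58 ± 0.12 (SE, q = 0.0049) for ABX on CD.

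Both multiplexins, which sit at basement membranes and release the fragments endostatin and restin, were lower on TDD in SPF mice. Col18a1 (chr10:77052178-77166548, minus strand) was at 54.6, 37.3, 57.9, 44.2 and 66.8 CPM in CD and at 21.7, 29.1, 25.3, 26.5 and 37.1 CPM in TDD mice. The groups did not overlap, though TDD mouse 5 lay just below CD mouse 2, and the log2 fold change was -0.90 ± 0.17 (SE, q = 0.00174). ABX-treated mice had Col18a1 at 48.8, 55.7, 42.5, 48 and 56.3 CPM on CD and 38.8, 31.9, 43.2, 24.8 and 29 CPM on TDD (-0.58 ± 0.17 (SE, q = 0.087)). Col15a1 (chr4:47208161-47313167, plus strand) was at 24.5, 27.2, 22.9, 18.7 and 24.7 CPM in CD and at 11.6, 16.1, 16.7, 14.1 and 18.1 CPM in TDD mice, with a log2 fold change of -0.62 ± 0.13 (SE, q = 0.00335). With ABX the 2 diets did not overlap in Col15a1, but its q missed the threshold (-0.45 ± 0.13 (SE, q = 0.0804)).

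None of the 4 membrane-spanning collagens passed for the diet. Col13a1, found at cell junctions and the cell surface, was at 10.7, 11, 9.56, 10.1 and 11.8 CPM in CD and at 12, 12.1, 13.2, 10.4 and 11.7 CPM in TDD mice. With ABX it was at 7.52, 7.58, 7.35, 6.58 and 8.6 CPM on CD and at 8.76, 6.97, 6.82, 9.06 and 8.55 CPM on TDD. All ABX-treated mice lay below all mice without ABX on the same diet, with log2 fold changes of -0.49 ± 0.09 (SE, q = 0.0025) on CD and -0.57 ± 0.09 (SE, q = 0.0013) on TDD, kept in all 20 fits that left out 1 mouse. For the diet the Col13a1 values were 0.16 ± 0.09 (SE, q = 0.267) in SPF mice and 0.09 ± 0.09 (SE, q = 0.701) with ABX. Col23a1 was lower with ABX on TDD (-0.26 ± 0.08 (SE, q = 0.039)), a call lost in 12 of 20 such fits (CD mouse 5, TDD mice 2, 3 and 5, CD+ABX mice 1 to 4 and TDD+ABX mice 1, 2, 3 and 5, q up to 0.131) and kept under 6 of 13 other settings, and Col17a1 and Col25a1 passed in no comparison. The FACIT Col22a1 was lower with ABX on CD (-0.44 ± 0.14 (SE, q = 0.0436)) at 1.1 to 1.45 CPM in CD and 0.75 to 1.07 CPM in CD+ABX mice, a call lost in 11 of 20 such fits (CD mice 3, 4 and 5, TDD mice 4 and 5, CD+ABX mice 1 to 4 and TDD+ABX mice 1 and 4, q up to 0.109) and kept under 4 of 13 other settings. Col6a5, Col7a1, Col8a1, Col8a2, Col9a2, Col9a3, Col16a1, Col20a1, Col26a1 and Col28a1 passed in none of the 4 comparisons.

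Counted over the 39 genes, CD and TDD mice did not overlap in CPM for 13 genes, where 9.58% of all genes tested had no overlap. With ABX the diets did not overlap for 6 genes (Col1a1, Col4a1, Col4a2, Col14a1, Col15a1 and Col24a1), against 4.78% of all genes. ABX separated the mice for 6 genes on CD (Col4a3, Col4a4, Col4a5, Col13a1, Col22a1 and Col24a1), against 9.74%, and for 1 gene on TDD (Col13a1), against 11%. Without regard to the test, the log2 fold change was under 0 in 29 of the 39 collagen genes for the diet in SPF mice (47.3% of all genes), in 30 for the diet with ABX (50.8%), in 35 for ABX on CD (51.1%) and in 31 for ABX on TDD (54.5%).

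Whether the diet acted differently with and without ABX was tested as an interaction. No collagen gene passed in edgeR, where 0.0368% of all genes did, and 3 of the 39 had an unadjusted p under 0.05, as did 1446 of all 16306 genes, a similar share. Col12a1 had the smallest q, with a difference between the 2 log2 fold changes of 0.63 ± 0.17 (SE, q = 0.204). The values of Col6a3 and Col4a5 were 0.52 ± 0.19 (SE, q = 0.363) and 0.47 ± 0.19 (SE, q = 0.463). DESeq2 passed Col12a1 (0.64, q = 0.0458), where it passed 134 of all 16306 genes, and limma-voom passed no collagen gene. For Col1a1 and Col3a1 the differences were 0.36 ± 0.20 (SE, q = 0.626) and 0.45 ± 0.23 (SE, q = 0.594), so that smaller diet effects with ABX were not shown for them, nor equal ones.

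In a bulk library, fewer cells of a type and less RNA per cell cannot be told apart, so marker genes of the cell types in the piece are given beside these results. Pdgfra, a surface receptor of fibroblasts and 1 of 12 fibroblast markers listed, was at 60.1, 63.6, 52.1, 51.9 and 61.6 CPM in CD mice. In TDD mice it was at 51.6, 56.2, 57.9, 50.7 and 65.4 CPM. Col3a1 per Pdgfra was 3.26, 3.74, 3.61, 3.26 and 4.74 in CD and 1.5, 2.03, 1.77, 1.76 and 1.61 in TDD mice, without overlap. The 12 markers had a median log2 fold change of -0.26 (from -1.07 to 0.81) for the diet in SPF mice, so Pdgfra does not stand for all of them. Of 12 fibroblast markers, 3 passed as lower in SPF mice on TDD (Mfap5, Pdpn and Vim) and none for the diet with ABX, 2 were lower with ABX on CD (Thy1 and Mfap5), and their sum ran from 481 to 687 CPM in CD, 439 to 524 CPM in TDD, 468 to 518 CPM in CD+ABX and 396 to 547 CPM in TDD+ABX mice. None of 10 smooth muscle markers passed in any comparison, with sums of 888 to 3599 CPM in CD and 1056 to 2815 CPM in TDD mice, and none of 6 pericyte or 5 enteric glia markers did. With the log2 level of Myh11 (smooth muscle myosin) in the fit, 16 collagen genes passed in SPF mice. They included Col5a3 and Col25a1, which did not pass without it. For Col25a1 the log2 fold change without Myh11 in the fit was positive (0.52), so the genes that passed were not all lower. Of 9 endothelial markers none passed for the diet, and 1 and 3 were lower with ABX on CD and on TDD. Beside these and the following marker counts, 7.71% of all genes tested passed as lower for the diet in SPF mice. The share was 1.02% for the diet with ABX, 7.37% for ABX on CD and 8.22% for ABX on TDD.

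Macrophage markers were lower in some of the comparisons in which collagen genes were lower, but not in all. Of 7, 6 were lower on TDD in SPF mice (Adgre1, C1qb and Csf1r with the smallest q), 6 were lower with ABX on CD and 3 with ABX on TDD, and none passed for the diet with ABX. Their sum ran from 190 to 242 CPM in CD, 111 to 172 CPM in TDD, 134 to 157 CPM in CD+ABX and 109 to 124 CPM in TDD+ABX mice, and none was at 0. T cell markers were lower with ABX (5 of 6 on CD and 4 of 6 on TDD) and none passed for the diet. The 9 B cell and follicle markers passed in no comparison but differed widely between mice, with sums from 6.86 to 125 CPM in CD, 6.32 to 192 CPM in TDD, 4.32 to 10.6 CPM in CD+ABX and 5.1 to 134 CPM in TDD+ABX mice. With the level of Ms4a1 (a B cell gene) in the fit, 11 collagen genes passed in SPF mice. The part of macrophages in the collagen values was not tested. Of 5 mesothelial markers only Krt19, also made by epithelium, passed, higher with ABX on both diets. Of 12 epithelial markers none passed for the diet, and with ABX 4 were higher and 1 lower on CD and 3 higher and 1 lower on TDD. The share of all genes that passed as higher with ABX is not given here, so the counts of markers higher with ABX are a description only. Of 5 pancreas genes tested, 2 passed as lower on TDD in SPF mice and 2 with ABX on CD, comparisons that both hold CD mouse 5.

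**Figure D4:**
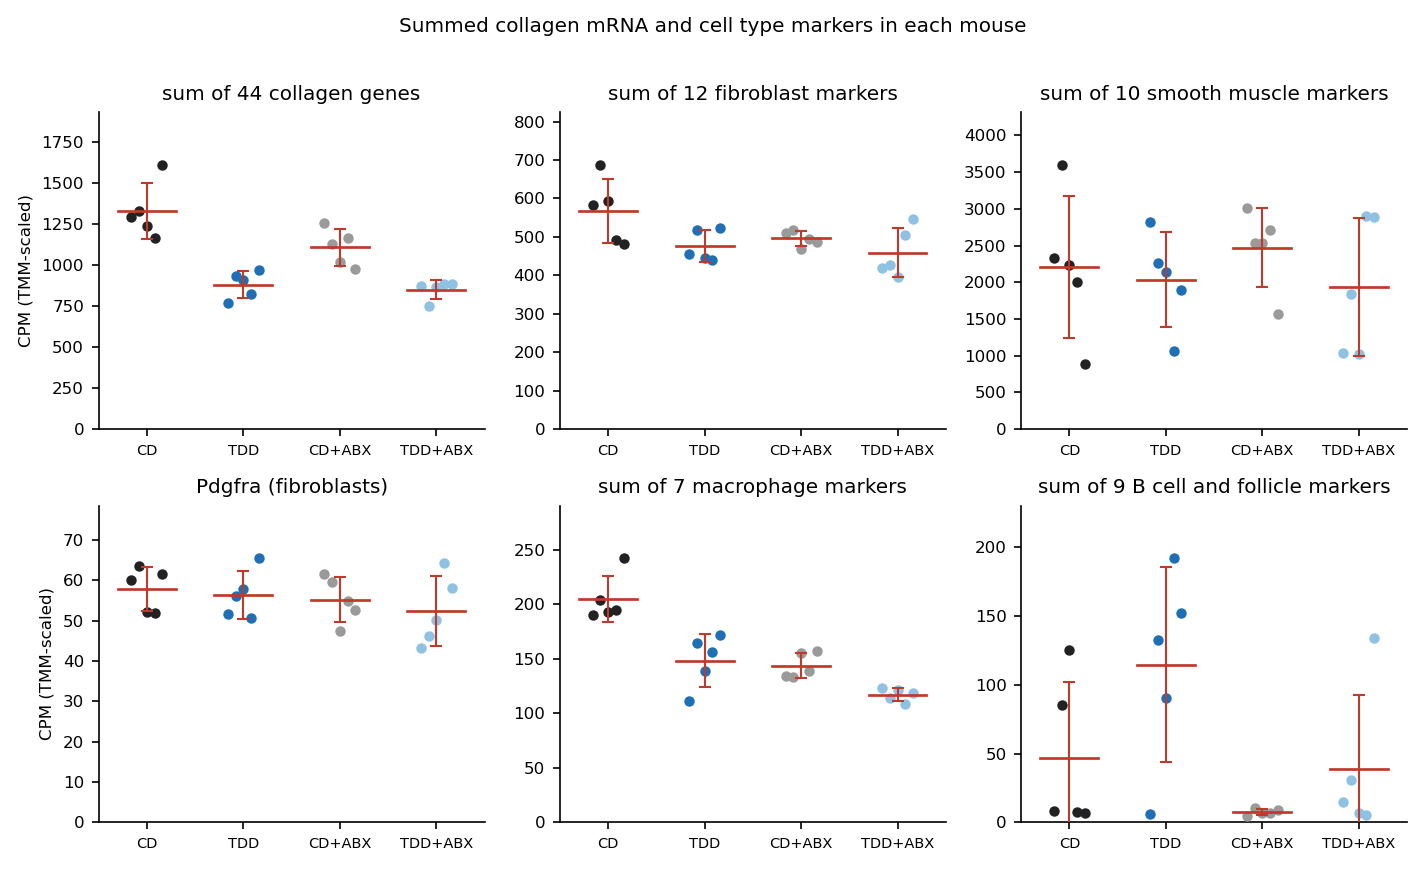
Summed CPM of the 44 collagen genes, of fibroblast, smooth muscle, macrophage and B cell markers, and CPM of Pdgfra (y axes) in each mouse (points), with the mean and SD of each group in red (n = 5, bars cut at 0). Summed collagen is lower in TDD than in CD mice without overlap. Pdgfra and the sum of fibroblast markers (mean 567 CPM in CD and 476 CPM in TDD mice) overlap between them. Smooth muscle and B cell markers vary several-fold within groups.

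The machinery that makes, cross-links and degrades collagen was described with 8 gene lists. Of 5 lysyl oxidases, which cross-link fibers, 3 passed as lower on TDD in SPF mice, with log2 fold changes of -0.65 ± 0.10 (SE, q = 0.000209) for Loxl2, -0.70 ± 0.20 (SE, q = 0.0218) for Loxl1 and -0.44 ± 0.14 (SE, q = 0.0385) for Loxl3, and none passed for the diet among ABX-treated mice. Between mice with and without ABX, Loxl3 (-0.44 ± 0.14 (SE, q = 0.0419)) and Loxl2 (-0.30 ± 0.10 (SE, q = 0.0431)) were lower with ABX on CD and Lox (-0.69 ± 0.22 (SE, q = 0.0379)) on TDD. Of 9 genes for folding and export, Serpinh1, the chaperone that binds procollagen in the endoplasmic reticulum, was lower on TDD in SPF mice (-0.97 ± 0.14 (SE, q = 0.000223)) and higher with ABX on TDD (0.57 ± 0.14 (SE, q = 0.0127)). In the same list Hspa5, a general chaperone of the endoplasmic reticulum, was higher on TDD in SPF mice (0.40 ± 0.13 (SE, q = 0.0404)) and higher with ABX on CD (1.05 ± 0.13 (SE, q = 8.64e-05)), as was Pdia3 with ABX on CD. Of 15 genes for hydroxylation and glycosylation, P4hb alone passed for the diet, higher in SPF mice (0.26 ± 0.09 (SE, q = 0.0488)), and Ppib alone for ABX, higher on CD (0.26 ± 0.06 (SE, q = 0.00928)). Of 9 genes for removal of propeptides, Adamts2, which trims procollagens I to III, was lower on TDD in SPF mice (-0.65 ± 0.15 (SE, q = 0.00631)), and the epithelial meprin Mep1a was higher with ABX on CD and on TDD.

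Among 23 fibril-binding and basement membrane partners, 3 were lower on TDD in SPF mice, namely Sparc, a collagen-binding glycoprotein (-0.87 ± 0.11 (SE, q = 6.84e-05)), Bgn, the proteoglycan biglycan (-0.69 ± 0.12 (SE, q = 0.000924)), and Nid1, which links laminin to type IV collagen (-0.55 ± 0.09 (SE, q = 0.00074)). With ABX, Sparc (-0.60 ± 0.11 (SE, q = 0.0108)), Bgn (-0.50 ± 0.12 (SE, q = 0.0403)) and Lama1 (-0.78 ± 0.18 (SE, q = 0.0309)) were lower on TDD. Between mice with and without ABX on CD, Lama1 was higher with ABX (0.75 ± 0.18 (SE, q = 0.00928)) and Bgn was lower (-0.38 ± 0.12 (SE, q = 0.0431)). Of 10 collagen receptors, Itga10 (-0.48 ± 0.12 (SE, q = 0.011)) and the platelet receptor Gp6 (-1.12 ± 0.32 (SE, q = 0.026)) were lower on TDD in SPF mice, and Itga11, a fibroblast integrin, was lower with ABX on CD (-0.60 ± 0.15 (SE, q = 0.0141)) and on TDD (-0.46 ± 0.15 (SE, q = 0.0466)). Among 15 breakdown genes tested, 2 were lower and 2 higher on TDD in SPF mice, with Mmp2, a gelatinase, lower (-0.67 ± 0.12 (SE, q = 0.00102)) and Timp3, an inhibitor (0.63 ± 0.15 (SE, q = 0.00767)), and the Paneth cell protease Mmp7 (0.84 ± 0.23 (SE, q = 0.0184)) higher, and 4 were lower with ABX on each diet, Mmp9 the most (-1.44 ± 0.31 (SE, q = 0.00528) on CD and -1.60 ± 0.31 (SE, q = 0.00289) on TDD). Of 21 genes of TGF-beta signalling and matrix regulation, Ltbp1 was lower (-0.37 ± 0.09 (SE, q = 0.00961)) and Smad2 and Smad4 were higher in SPF mice on TDD, Pdgfc was lower on TDD with ABX (-0.57 ± 0.13 (SE, q = 0.0289)), and 2 were lower with ABX on CD (Tgfb1 and Pdgfb) and 5 on TDD, with Pdgfb at the smallest q. Of all genes tested, 14.4% passed in either direction for the diet in SPF mice and 7.71% passed as lower. The partners (3 of 23) and regulators (3 of 21) did not exceed the first share. All 3 partners that passed were lower, and whether 3 of 23 differs from the second share was not tested. For the diet with ABX 1.02% of all genes passed as lower, and for ABX 7.37% did on CD and 8.22% on TDD. No share is given for genes higher with ABX, so listed genes that were higher with ABX are named as a description only.

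Since the diet lacked tryptophan, the tryptophan codons of the collagen genes were counted in the longest complete coding sequence of each gene (GENCODE M21). The 44 genes had 332 tryptophan codons among 66066, with a median of 4.07 per 1000 codons, where the median over 21595 genes was 11.1 per 1000 with quartiles of 6.33 and 17.3. In 34 of the 44 genes the value lay under that lower quartile, and only Col18a1 (11.3 per 1000) and Col26a1 (11.4 per 1000) lay above the median. Runs of at least 10 triplets that start with glycine held 45.9% of all collagen codons but 9 of the 332 tryptophan codons, which were in Col4a1, Col4a2, Col4a4, Col15a1 and Col27a1. Col1a1 had 6 tryptophan codons in 1453, Col1a2 4 in 1372 and Col3a1 7 in 1464, and none of these lay in the glycine runs. The 14 genes lower on TDD in SPF mice had 1.87 to 11.3 tryptophan codons per 1000 (median 4.07) and the 25 tested genes that did not pass had 0 to 11.4 (median 3.9). Among the 14, Col12a1, Col14a1 and Col18a1 had the most, with 9.79, 10.6 and 11.3 per 1000.

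**Figure D5:**
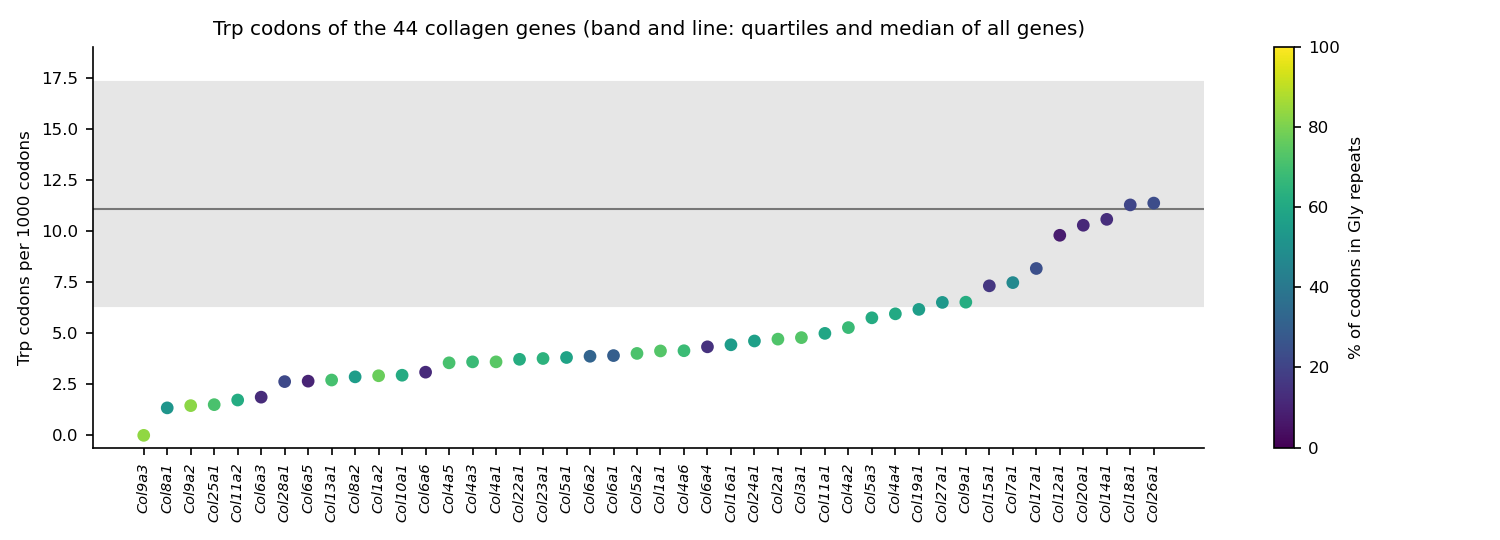
Tryptophan (Trp) codons per 1000 codons (y axis) of each of the 44 collagen genes, in rising order, coloured by the share of codons in runs of glycine triplets, with the quartiles (grey band) and median (line) of 21595 genes. Of the 44 collagen genes, 34 lie below the band and none above it. Genes with few glycine triplets lie below it, such as Col6a3 (1.87 per 1000), and within it, such as Col12a1 (9.79 per 1000).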

How the data were processed

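Poly-A RNA of the terminal ileum of 20 mice (4 groups of 5) was quantified by the authors with kallisto 0.44.0 on GRCm38, per the labels. The deposited estimated counts per gene are whole numbers that were not normalized, and the deposited TPM values are per transcript and were summed per gene here. The age and the diet time are from the study's methods. The range of total counts in each group is in the report. Counts were scaled by TMM, genes that reached 0.5 CPM in any mouse were kept (16306), and all 20 mice entered 1 fit of edgeR's quasi-likelihood test (edgeR 4.0.16, R 4.3.3), with p-values adjusted by Benjamini-Hochberg over all genes. The 4 pairwise comparisons and the interaction were contrasts of that fit. The procedure was tested on simulated counts with known changes. Alternatives used DESeq2 1.42.0 and limma 3.58.1, other scalings and filters, log2(TPM + 1) and log2(TPM + 0.1), the 2 groups alone, a replicate block, and each mouse left out. The collagen genes and all lists were chosen with earlier results of these data known. Values per mouse are given for the 6 collagen genes with the highest mean TPM and the 14 with the smallest adjusted p in any pairwise comparison, plus those named as exceptions, and up to 3 genes that passed are named per pathway list. Replicates are separate mice per the labels, and no pair of a group agreed within sampling noise. GENCODE M21 gave coordinates and coding sequences, and RefSeq (GRCm38.p6) gave the stretches before the start sites, with a window for 35 of the 44 genes. Body weight was not analysed here.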

Additional observations from a re-analysis of the deposited data

Results flagged for a closer look

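Within groups of 5 mice, 1 value stood far from the other 4 by Dixon's criterion for 4 collagen genes, among 68 groups of values examined, where chance gives about 5%. CD mouse 5 was high for Col6a1 (167 CPM), Col6a2 (134 CPM) and Col6a3 (131 CPM), 3 chains of type VI collagen. TDD mouse 1 was low for Col6a4 (52.9 CPM). Outside the comparisons of collagen genes, CD mouse 5 held transcripts of the pancreatic enzymes Cpa1 (23.3 CPM) and Pnlip (33.2 CPM), which were at or near 0 in the other mice.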

How the results depend on the processing

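Over the 22 collagen genes that passed in a comparison or were among the 6 most abundant, no fold change that passed changed direction under any setting run, though some that did not pass changed sign, and 808 of 880 results, passed or not, kept their side of the threshold under the planned settings, 1643 of 1760 with 1 mouse left out and 245 of 264 under the settings chosen after seeing the data (Myh11 or Ms4a1 as a covariate, CD mice 2 and 5 left out). For the diet in SPF mice, 11 to 17 genes passed with 1 mouse left out (17 without CD mouse 2, with Col25a1 among them) and 2 to 3 were called at 2-fold. 1 was called with log2(TPM + 1) and 0 without CD mice 2 and 5. For the diet with ABX, 8 became 11 with DESeq2, 4 without a filter and with the 2 groups alone, 3 with log2(TPM + 1) or log2(TPM + 0.1), and 4 to 9 with 1 mouse left out (4 when any of CD+ABX mice 1 to 4 and TDD+ABX mice 3 and 4 was out, and 5 when TDD+ABX mouse 1 or 2 was out), with 0 to 0 called. For ABX on CD, 8 became 10 with DESeq2, 5 without a filter or without CD mice 2 and 5, and 5 to 9 with 1 mouse left out (5 without CD+ABX mouse 2 or 4). 0 were called with log2(TPM + 1), 1 with log2(TPM + 0.1), and 1 to 2 with 1 mouse left out (1 without CD mouse 1 or CD+ABX mouse 4). For ABX on TDD, 4 became 2 without a filter and with the 2 groups alone, and 2 to 5 with 1 mouse left out (2 when any of CD mouse 5, TDD mice 3 and 5, CD+ABX mice 1 to 4 and TDD+ABX mice 1 to 3 was out). 1 was called with limma-voom, 2 with Ms4a1 as a covariate, and 0 to 2 with 1 mouse left out (1 without TDD mouse 5 or TDD+ABX mouse 1, 2 without TDD+ABX mouse 4 or 5). For the interaction, DESeq2 passed 1 collagen gene, and 0 passed with any mouse left out. The cause was not tested.

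The replicate numbers did not pair the mice (mean correlation of deviations -0.03 for the same number and 0.01 for different numbers). With the number as a replicate block, 12 collagen genes passed for the diet in SPF mice, 4 for the diet with ABX, 6 for ABX on CD and 2 for ABX on TDD, where 1 was called at 2-fold. Depth limits the genes near 1 CPM, such as Col4a3, Col4a4 and Col22a1.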
